A study of Mus musculus with 8 samples.

Results

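The genes described here encode proteins that make, coat and retain lipid droplets in fatty liver. They are Mogat1, Mogat2, Plin2, Plin4, Plin5, Cidea, Cidec, G0s2, Pparg and Cd36. They were picked by symbol, and each of the 10 matched 1 row among 55487 genes of the count table. The livers came from 8 mice labelled female, with 1 RNA-seq library per mouse. Ages of the 4 WT mice were 10.7, 12.3, 11.1 and 11.8 weeks. The 2 mice of the group called Ercc1 below carried the genotype Ercc1 -/D, in which a null allele is paired with a shortened allele of the DNA repair endonuclease subunit ERCC1, and were 15.1 and 13.7 weeks old. The 2 mice called NemoDK_Ercc1 had that Ercc1 genotype together with an allele labelled NEMO DK, and were both 11.8 weeks old. NEMO is a scaffold protein of the IKK complex upstream of NF-kB, and the labels do not explain DK. The labels name no strain, no tissue-specific driver and no feeding state, and no group carried NEMO DK without the Ercc1 alleles.

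Hepatocytes store triglyceride in droplets wrapped in perilipins. Monoacylglycerol acyltransferases (Mogat) esterify monoacylglycerol to diacylglycerol, a route that is prominent in the intestine and minor in normal mouse liver. CIDE proteins enlarge droplets by passing lipid from one droplet to another. PPAR-gamma, the product of Pparg, is the master regulator of fat cells, is low in normal liver and in steatotic mouse liver is known to raise Mogat1, Cidec and Cd36.

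Libraries held 21556570 to 27812478 counts. Hepatocyte markers were detected 9 of 9 in the table, and their summed level was 128156 to 161172 CPM in WT, 96902 to 102487 in Ercc1 and 94266 to 94799 in NemoDK_Ercc1, where CPM is the usual depth-normalised read count, with library sizes scaled by TMM factors. WT library 3 held 0 counts of Xist and 3087 counts of 4 Y-linked genes, against its label of a female mouse, while the other 7 libraries held 9331 to 15744 counts of Xist. It was the lowest WT library for 6 of the 9 members that could be tested, and results without it are given where the call of a member differs. Of 15598 genes tested with edgeR's quasi-likelihood test, 11.3% were called higher and 9.5% lower in Ercc1 than in WT at an adjusted p under 0.05. In NemoDK_Ercc1 against WT the shares were 10.6% and 7.4%. With library size alone as the scaling, the calls were 3765 higher and 690 lower in Ercc1 (1761 and 1482 with TMM) and 3508 and 490 in NemoDK_Ercc1 (1646 and 1154). These comparisons share the WT libraries. The submitters call the mice biological replicates and do not name their litters.

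Against those backgrounds, Mogat1, Mogat2, Cidec, Pparg and Cd36 were called higher in both mutant groups than in WT, which is 5 of 9 tested members in each comparison, and 0 were called lower. Mogat1 and Mogat2 were too low in WT to pass the filter there and were tested only because of the mutant libraries, so they had to differ. Of the 7 members that pass on the WT libraries alone, 3 were called higher in each comparison. Plin2 was higher in both Ercc1 livers than in any WT liver without passing the test, and Plin4 was below the WT range in all 4 mutant livers, also without passing. Groups did not overlap for 6 members above and 1 below WT in Ercc1, beside 21.3% of tested genes in each direction, and for 5 above and 2 below in NemoDK_Ercc1, beside 24.8% and 22.1%. At an unadjusted edgeR p under 0.05, 6 members were higher and 1 lower (Plin4) in Ercc1. In NemoDK_Ercc1 5 were higher and 2 lower (Plin4 and Plin5). Of all 15598 tested genes, 5550 in Ercc1 and 5306 in NemoDK_Ercc1 passed that threshold, in either direction. With DESeq2 the same numbers of members were called higher and lower, with no share of all genes to set beside them. The median log2 fold change of all tested genes was 0.265 and 0.27 when scaled by library size alone, beside -0.001 and 0.0034 with TMM, and none of the members' signs against WT changed with it. In bulk liver, more RNA per cell and more cells that express a gene cannot be told apart.

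**Figure D1:**
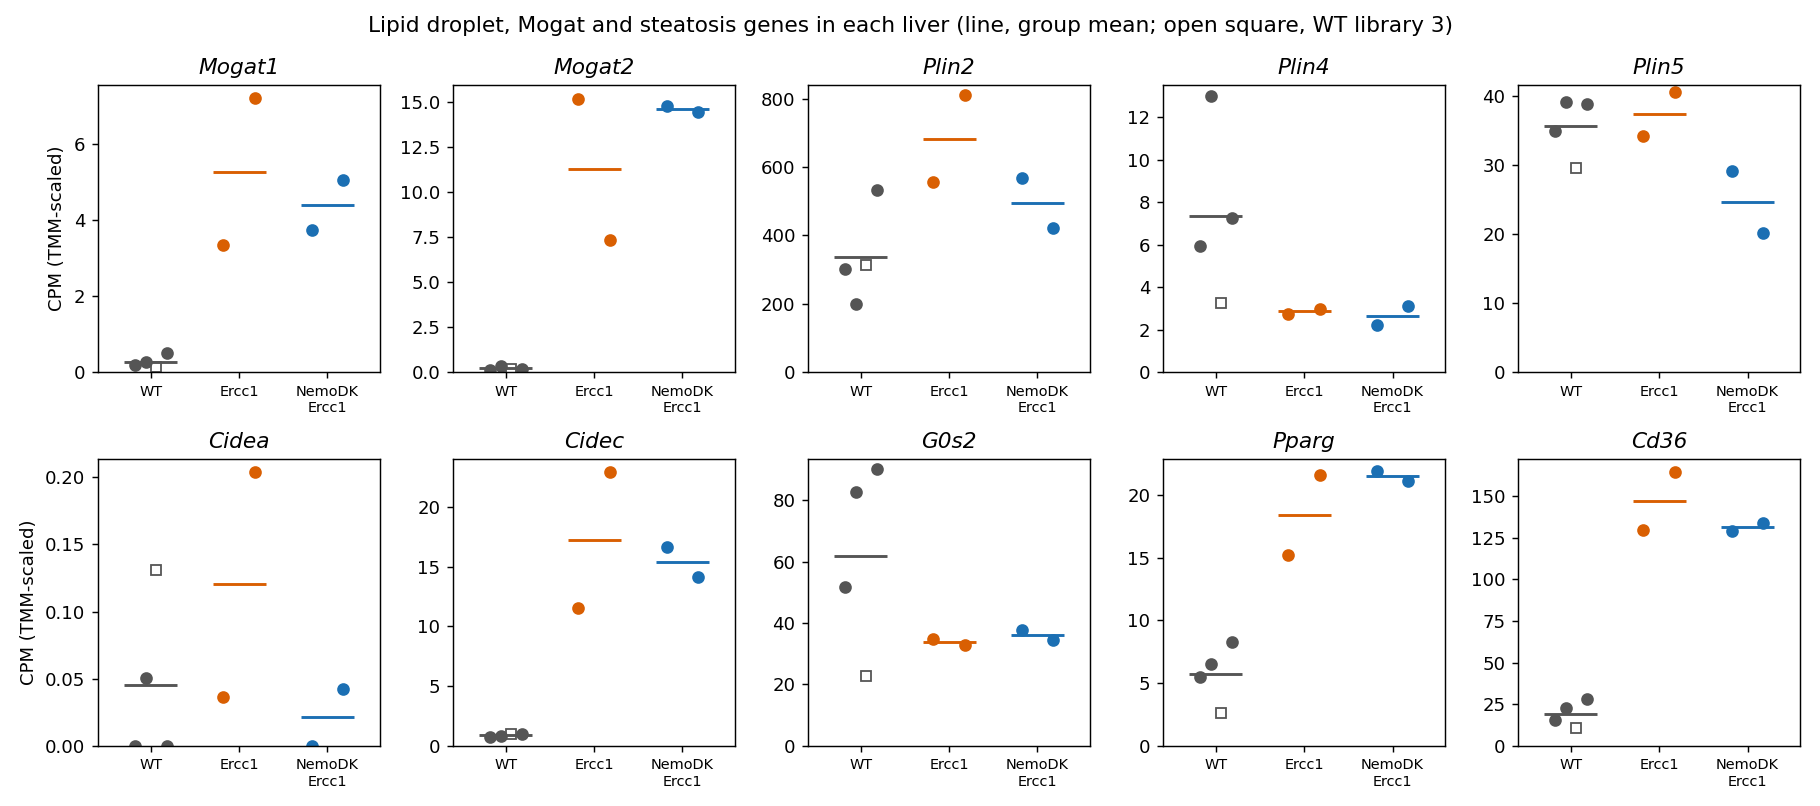
Level of each of the 10 genes in each liver, in TMM-scaled CPM on a linear axis from 0. Points are libraries, lines are group means, and the open square is WT library 3. Mogat1, Mogat2, Cidec, Pparg and Cd36 lie above every WT liver in all 4 mutant livers, and Plin4 lies below every WT liver.

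Upstream sequences were compared because 5 of the genes moved together and PPAR-gamma with its partner RXR binds a direct repeat of AGGTCA spaced by a single base. RefSeq start sites on GRCm38.p6 were on hand for 8 of the 10 genes (12 starts), not for Mogat2 or Cidea. The 250 bases before each start were searched on both strands for AGGTCA, any base and AGGTCA again, with up to 2 mismatches at the 12 fixed positions. This was found at 3 of the 12 starts (Mogat1, Plin2 and Cd36), beside 3.24% of 32851 start sites of all genes. Without mismatches it was at none of the 12 and at 0.0335% of all, and with up to 1 mismatch at none and at 0.484%. Some of the 12 starts belong to the same gene, and Plin2 was not among the 5 genes called. The 6 letters AGGTCA alone, which can lie inside the longer motif, were at 5 of 12 starts (Plin2, Plin5, Pparg at 2 starts, and Cd36), beside 14% of all. In the Pparg window chr6:115360894-115361143 the match lies in exon bases of the GENCODE annotation. The other Pparg window with a match, chr6:115362099-115362348, shares 57 bases with annotated exons. The sequences are shown for the 3 genes with a match and for Cidec, a gene that rose with no match in its window. Capitals mark the motif matches, in either orientation. The Mogat1 window of 30 bases is chr1:78511001-78511030 on the plus strand and lies in the first exon of the GENCODE annotation. The others are on the minus strand: Plin2 at chr4:86670061-86670309, Cidec at chr6:113435761-113436010 and Cd36 at chr5:17835897-17836146. The RefSeq start of Cd36 used here is not a start of its GENCODE M21 transcripts.
Mogat1: cagaattcAGGTAAAAAGTCAggctggtga
Plin2: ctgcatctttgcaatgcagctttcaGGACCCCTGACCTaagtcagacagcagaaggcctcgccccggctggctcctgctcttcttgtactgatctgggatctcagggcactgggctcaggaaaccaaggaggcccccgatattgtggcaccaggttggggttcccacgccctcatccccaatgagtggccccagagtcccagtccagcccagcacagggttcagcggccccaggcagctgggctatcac
Cidec: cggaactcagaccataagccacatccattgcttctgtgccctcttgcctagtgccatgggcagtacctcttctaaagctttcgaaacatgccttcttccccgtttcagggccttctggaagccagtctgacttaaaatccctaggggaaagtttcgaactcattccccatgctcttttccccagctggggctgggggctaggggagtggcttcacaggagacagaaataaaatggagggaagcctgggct
Cd36: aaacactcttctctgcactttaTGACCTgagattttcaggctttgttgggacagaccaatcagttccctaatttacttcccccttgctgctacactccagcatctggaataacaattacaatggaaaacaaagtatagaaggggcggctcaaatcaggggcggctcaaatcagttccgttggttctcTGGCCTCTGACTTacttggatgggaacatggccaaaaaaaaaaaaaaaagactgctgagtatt
A match describes these letters only and does not show that a factor binds there.

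Mogat2 (ENSMUSG00000052396, GRCm38 chr7:99219084-99238619, minus strand) encodes the monoacylglycerol acyltransferase of the intestine. It had 2, 7, 4 and 5 counts in the 4 WT livers, 415 and 217 in the Ercc1 livers, and 450 and 342 in NemoDK_Ercc1. In CPM these were 0.0969, 0.353, 0.175 and 0.193 in WT, 15.2 and 7.37 in the Ercc1 livers, and 14.8 and 14.5 in NemoDK_Ercc1. No WT liver came near any mutant liver. The log2 fold change was 5.77 ± 0.39 (SE) in Ercc1 (edgeR, adjusted p = 0.000128) and 6.14 ± 0.38 in NemoDK_Ercc1 (adjusted p = 0.000106). Mogat2 ranked 49th and 36th from the highest among the 15598 fold changes of these comparisons. It entered that set only because of the mutant libraries, so its p-values and rank are no separate support for a rise. Its exons share 55 bases with Gm45012 on the other strand. Gm45012 had 3 counts in WT library 2, 13 in NemoDK_Ercc1 library 2 and 0 in every other library.

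Mogat1 (ENSMUSG00000012187, chr1:78510991-78538173, plus strand) is the paralog that is raised in fatty mouse liver. Its counts were 4, 5, 3 and 13 in WT, 91 and 212 in the Ercc1 livers, and 114 and 119 in NemoDK_Ercc1. These counts correspond to 0.194, 0.252, 0.131 and 0.502 CPM in WT, 3.34 and 7.20 in the Ercc1 livers, and 3.75 and 5.04 in NemoDK_Ercc1. Every mutant liver was above every WT liver. Like Mogat2, Mogat1 was tested only because of the mutant libraries. The fold change on the log2 scale was 4.23 ± 0.46 in Ercc1 (edgeR, adjusted p = 0.000946) and 3.96 ± 0.46 in NemoDK_Ercc1 (adjusted p = 0.00145). Its exons share 200 bases with BC035947 on the other strand, a gene with 0 to 1 counts in WT libraries and 8 to 21 in mutant libraries, and the strand setting of the counting is not given in the sources used here.

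Mogat1 and Mogat2 together amounted to 0.291 to 0.695 CPM in WT, 18.5 and 14.6 in the Ercc1 livers, and 18.5 and 19.5 in NemoDK_Ercc1. Mogat2 supplied 82.0% of the pair's counts in Ercc1 library 1, 50.6% in Ercc1 library 2, and 79.8 and 74.2% in the NemoDK_Ercc1 libraries. Ercc1 library 2 thus had the highest Mogat1 and the lowest Mogat2 of the 4 mutant livers. In WT the pair had 6 to 18 counts per library, too few to give a share with useful precision.

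**Figure D2:**
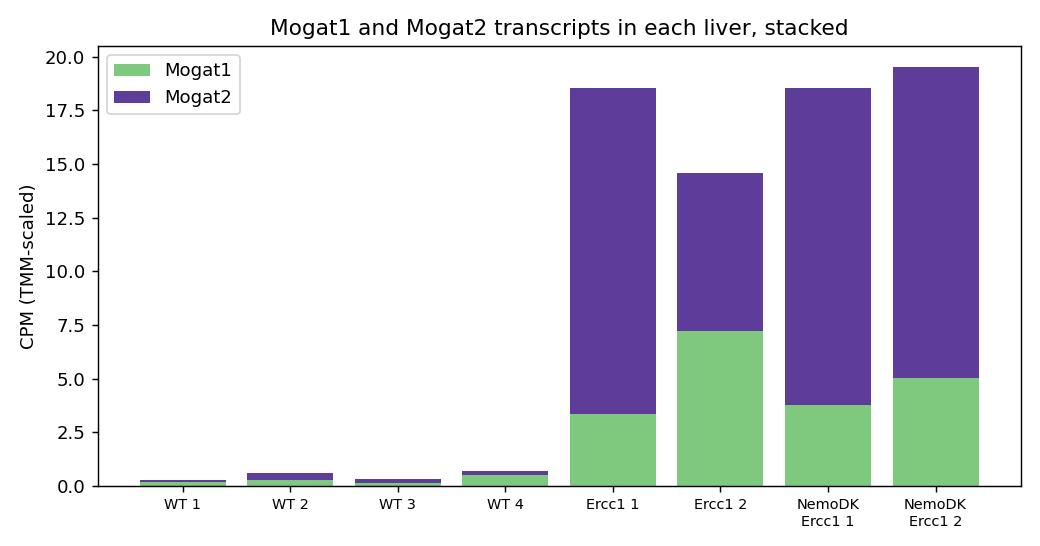
Stacked bars of Mogat1 and Mogat2 in each library, in TMM-scaled CPM. The 4 WT bars stay at or below 0.695 CPM, and the 4 mutant bars reach 14.6 to 19.5 CPM, with a larger Mogat1 part in Ercc1 library 2 than in the other mutant livers.

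Pparg (ENSMUSG00000000440, chr6:115360951-115490399, plus strand) was 5.47, 6.50, 2.62 and 8.26 CPM in WT, 15.2 and 21.6 in the Ercc1 livers, and 21.9 and 21.1 in NemoDK_Ercc1. The groups did not overlap, and the lowest WT value was in library 3. The log2 fold change was 1.68 ± 0.34 in Ercc1 (edgeR, adjusted p = 0.0114), a 3.21-fold higher level, and 1.91 ± 0.34 in NemoDK_Ercc1 (adjusted p = 0.00787), a 3.76-fold higher level. The Ercc1 call ended without Ercc1 library 2 (1.41, adjusted p = 0.0817). The NemoDK_Ercc1 call ended without its library 1 (1.88, adjusted p = 0.0653) or library 2 (1.94, adjusted p = 0.0558). Counts per gene do not separate the liver and fat-cell isoforms, which start at different promoters.

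Cd36 (ENSMUSG00000002944, chr5:17781690-17888801, minus strand), which encodes a fatty acid translocase and scavenger receptor, was 15.3, 22.5, 10.6 and 27.8 CPM in WT, 130 and 165 in the Ercc1 livers, and 129 and 134 in NemoDK_Ercc1. The lowest mutant liver was well above the highest WT liver. It rose 7.73-fold in Ercc1 (log2 2.95 ± 0.31, edgeR, adjusted p = 0.000874) and 6.90-fold in NemoDK_Ercc1 (2.79 ± 0.31, adjusted p = 0.00116).

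Cidec (ENSMUSG00000030278, chr6:113424634-113435760, minus strand), joins small droplets into large ones and is a fat-cell gene that appears in steatotic liver. It stayed within a narrow range in WT, at 0.775, 0.856, 0.961 and 0.965 CPM, and was 11.6 and 22.9 in the Ercc1 livers and 16.7 and 14.1 in NemoDK_Ercc1. The mutant range began far above the WT range. The change was 19.2-fold in Ercc1 (log2 4.27 ± 0.27, edgeR, adjusted p = 9.68e-05) and 17.2-fold in NemoDK_Ercc1 (4.10 ± 0.27, adjusted p = 0.000107). Cidea (ENSMUSG00000024526, chr18:67343604-67367785, plus strand) is the CIDE gene of brown fat. It had 0, 1, 3 and 0 counts in WT, 1 and 6 in the Ercc1 livers, and 0 and 1 in NemoDK_Ercc1, and did not pass the filter. Summed over each group this was 0.0448 CPM in WT (95% exact Poisson interval 0.0122 to 0.115, counting error only), 0.123 in Ercc1 (0.0496 to 0.254) and 0.0185 in NemoDK_Ercc1 (0.000469 to 0.103), so a difference was not detectable at this depth. Cideb, the constitutive hepatocyte member, was 226 to 266 CPM in WT and 258 to 285 in the mutant livers, with log2 changes of 0.09 ± 0.13 in Ercc1 (edgeR, adjusted p = 0.651) and 0.10 ± 0.13 in NemoDK_Ercc1 (adjusted p = 0.616).

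Among the perilipins, Plin2 (ENSMUSG00000028494, chr4:86648386-86670060, minus strand), the main droplet coat of hepatocytes, was 302, 199, 314 and 533 CPM in WT, 556 and 809 in the Ercc1 livers, and 566 and 421 in NemoDK_Ercc1. Both Ercc1 livers were above WT, while NemoDK_Ercc1 library 2 was below WT library 4. The log2 fold change was 1.02 ± 0.34 in Ercc1 (edgeR, adjusted p = 0.0649) and 0.55 ± 0.34 in NemoDK_Ercc1 (adjusted p = 0.296), neither of which passed. Without WT library 4 the Ercc1 value was 1.33 (adjusted p = 0.0155), and DESeq2 gave 1.03 with an adjusted p of 0.0122.

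Plin4 (ENSMUSG00000002831, chr17:56100591-56109803, minus strand), a perilipin of fat cells and muscle, was 5.96, 13.0, 3.28 and 7.26 CPM in WT, 2.75 and 2.99 in the Ercc1 livers, and 2.20 and 3.09 in NemoDK_Ercc1. All 4 mutant livers were below the WT range, library 3 by a small margin. Its log2 fold change was -1.36 ± 0.48 in Ercc1 (edgeR, adjusted p = 0.0773) and -1.48 ± 0.49 in NemoDK_Ercc1 (adjusted p = 0.0679). Without WT library 3 both passed, at -1.58 (adjusted p = 0.0151) and -1.73 (adjusted p = 0.0130).

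Plin5 (ENSMUSG00000011305, chr17:56111601-56117596, minus strand), which ties droplets to mitochondria in oxidative tissues, was 34.9, 39.1, 29.5 and 38.8 CPM in WT, 34.1 and 40.5 in the Ercc1 livers, and 29.0 and 20.2 in NemoDK_Ercc1. Ercc1 lay across the WT range and NemoDK_Ercc1 just under it. The values were 0.07 ± 0.17 in Ercc1 on the log2 scale (edgeR, adjusted p = 0.808) and -0.53 ± 0.18 in NemoDK_Ercc1 (adjusted p = 0.0740, and -0.61 with adjusted p = 0.0337 without WT library 3). Plin3, a ubiquitous perilipin, was 39.0 to 66.0 CPM in WT and 60.1 to 67.8 in the mutant livers and was not called. Plin1, the coat protein of fat-cell droplets, had 0 counts in all 8 libraries.

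G0s2 (ENSMUSG00000009633, chr1:193272161-193273217, minus strand) encodes an inhibitor of the triglyceride lipase ATGL. It was 51.7, 82.7, 22.7 and 90.1 CPM in WT, 34.6 and 33.0 in the Ercc1 livers, and 37.6 and 34.4 in NemoDK_Ercc1. WT livers spanned 3.97-fold, with library 3 below and the other 3 above every mutant liver. The log2 fold change was -0.87 ± 0.46 in Ercc1 (edgeR, adjusted p = 0.208) and -0.78 ± 0.45 in NemoDK_Ercc1 (adjusted p = 0.262). Without WT library 3 both passed, at -1.13 (adjusted p = 0.00918) and -1.06 (adjusted p = 0.0135). Leaving that library out gave 2 members called lower in Ercc1 (Plin4 and G0s2) and 3 in NemoDK_Ercc1 (Plin4, Plin5 and G0s2), and 5 higher in each. Of 15551 genes tested in that fit, at most 1563 were called lower in Ercc1 and at most 1344 in NemoDK_Ercc1. At most 1845 and 1672 were called higher. These limits are the highest counts of any fit with 1 library left out.

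**Figure D3:**
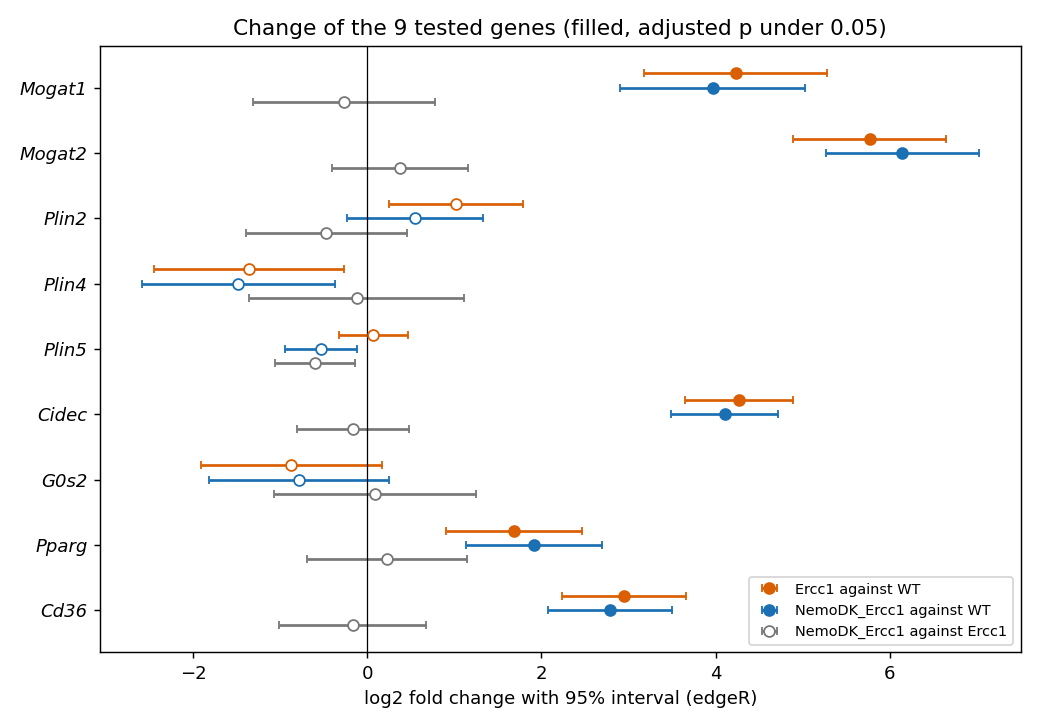
Log2 fold change of the 9 tested genes with 95% intervals from edgeR for the 3 comparisons. Filled points have an adjusted p under 0.05. Mogat1, Mogat2, Cidec, Pparg and Cd36 are filled in both comparisons with WT, and every point of NemoDK_Ercc1 against Ercc1 is open.

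Levels per kilobase of exon allow the genes to be ranked within a liver. In WT, Plin2 had a mean of 96.0 CPM per kb (56.6 to 152 over libraries) and G0s2 71.0 (26.1 to 103), which overlapped. Plin5 followed at 17.0 (14.1 to 18.7) and Cd36 at 5.30 (2.96 to 7.75). Pparg at 1.93 (0.887 to 2.80) and Plin4 at 1.28 (0.567 to 2.25) overlapped. Below them came Cidec at 0.479, Mogat1 at 0.173, Mogat2 at 0.111 and Cidea at 0.0407, and the ranges of the last 3 overlapped. In Ercc1 the order was Plin2 (194), Cd36 (41.1), G0s2 (38.8), Plin5 (17.9), Cidec (9.30), Pparg (6.23), Mogat2 (6.15), Mogat1 (3.38), Plin4 (0.496) and Cidea (0.108). There Cd36 overlapped G0s2, the ranges of Cidec, Pparg and Mogat2 overlapped, and so did those of Mogat2 and Mogat1. In NemoDK_Ercc1, G0s2 (41.3) stayed just above Cd36 (36.6), and Mogat2 (7.98) was above Pparg (7.29) and within the range of Cidec (7.62 to 8.98). Plin2 had the highest group mean per kilobase of the 10 in each group, though not in every WT library.

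NemoDK_Ercc1 was compared with Ercc1, a contrast in which the NEMO allele and the age of the mice differ together. Of the 9 members 0 were called, as of all tested genes (0%, edgeR). At an unadjusted p under 0.05 there were 1062 genes, among them 1 member, and DESeq2 called 33 genes higher and 36 lower, among them 0 members. The difference was -0.27 for Mogat1 on the log2 scale (95% interval -1.31 to 0.78), 0.38 for Mogat2 (-0.41 to 1.16), -0.16 for Cidec (-0.81 to 0.48), 0.23 for Pparg (-0.69 to 1.14) and -0.17 for Cd36 (-1.01 to 0.68). These intervals leave room for a change of about 2-fold in several genes, so like expression was not shown. Plin5 was the member with the small unadjusted p. Both NemoDK_Ercc1 livers were below both Ercc1 livers (-0.60, interval -1.06 to -0.14, unadjusted p = 0.0169, edgeR adjusted p = 0.648), a separation that 19.7% of tested genes showed in that direction, and 23.1% in the other, where there was no member. The Ercc1 mice were older than every other mouse, so the NEMO allele and age cannot be told apart between the mutant groups. NemoDK_Ercc1 mice, at 11.8 weeks, were within the WT ages, so age as a covariate could change their comparison with WT only little. The 5 members called there were also called with that covariate, and an effect of age was not tested. In Ercc1 against WT 2 members were called with age in the model (Cidec and Mogat2), while Mogat1 (5.05, adjusted p = 0.128), Cd36 (2.25, adjusted p = 0.215) and Pparg (1.37, adjusted p = 0.476) were not. Of all 15598 tested genes, 24 were called higher and 17 lower in that fit. Age and genotype cannot be told apart in this comparison, so a lost call does not mark a gene as dependent on age. Mogat1 and Mogat2 were tested only because of the mutant libraries.

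Other genes of triglyceride handling were divided, and their counts are read beside the 11.3% higher and 9.5% lower of all tested genes in Ercc1 and the 10.6% and 7.4% in NemoDK_Ercc1. Without either NemoDK_Ercc1 library, each of these 6 lists had 0 calls in NemoDK_Ercc1 except Lpl. Without Ercc1 library 1, the counts in Ercc1 were 2 higher and 0 lower for droplet proteins, 0 and 1 for synthesis, 0 and 0 for lipolysis, 1 and 0 for uptake and 0 and 0 for export. Without Ercc1 library 2 they were 1 and 0, 0 and 1, 0 and 0, 2 and 2, and 0 and 0. Among droplet proteins outside the members, 3 of 15 tested were called higher and 0 lower in the Ercc1 livers, and 4 higher and 1 lower in NemoDK_Ercc1, with medians of 0.07 and 0.10. Hilpda, a droplet protein that inhibits ATGL, was 1.26 to 2.08 CPM in WT, 6.05 and 5.02 in the Ercc1 livers, and 4.50 and 2.80 in NemoDK_Ercc1. It rose by 1.63 ± 0.27 (log2) in Ercc1 (edgeR, adjusted p = 0.00454) and by 1.04 ± 0.27 in NemoDK_Ercc1 (adjusted p = 0.0325). Fitm1 and Fitm2, whose products are needed for droplet budding from the endoplasmic reticulum, were called higher in both. The Fitm1 calls ended without WT library 2 or 4, and the Fitm2 call in Ercc1 without WT library 1, 2 or 4, among other libraries. With 1 library left out, the Fitm1 call held in 2 of 8 fits in Ercc1 and 3 of 8 in NemoDK_Ercc1. The Fitm2 call in Ercc1 held in 2 of 8. With age as a covariate neither was called in Ercc1 (Fitm1 3.58, edgeR adjusted p = 0.377, and Fitm2 0.61, adjusted p = 0.567). Fitm1 went from 1.02 to 12.2 CPM in WT to 19.1 and 31.6 in the Ercc1 livers and 25.4 and 32.1 in NemoDK_Ercc1.

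Triglyceride synthesis genes were 2 higher and 2 lower of 14 in each comparison, with medians of -0.11 and 0.07 and counts near the shares over all genes. The lower genes were Dgat2 and Lpin1 in Ercc1, and Dgat2 and Gpam in NemoDK_Ercc1. Gpam, the mitochondrial acyltransferase of the first step, gave -0.19 in Ercc1 (edgeR, adjusted p = 0.559) and -0.78 in NemoDK_Ercc1 (adjusted p = 0.0424). Dgat2, which makes triglyceride from diacylglycerol, the product of the Mogat enzymes, was 691 to 1040 CPM in WT, 253 and 298 in the Ercc1 livers, and 392 and 514 in NemoDK_Ercc1. It fell by 1.58 ± 0.22 in Ercc1 (edgeR, adjusted p = 0.00246) and fell by 0.86 ± 0.21 in NemoDK_Ercc1 (adjusted p = 0.0253, and -0.59 with adjusted p = 0.0555 when scaled by library size alone). Dgat1, the other enzyme of this step, was 26.8 to 31.8 CPM in WT and 24.5 to 25.2 in the mutant livers, and was not called. Gpat3 and Lpin3, earlier steps of the pathway, rose in both comparisons, by 0.76 and 1.30 in Ercc1 and by 0.90 and 1.09 in NemoDK_Ercc1. With age as a covariate Gpat3 in Ercc1 turned to -0.15 (adjusted p = 0.885) and Lpin3 was not called (2.59, adjusted p = 0.129). Dgat2 (-1.75, adjusted p = 0.178) and Lpin1 (-1.99, adjusted p = 0.409) were not called in Ercc1 with that covariate either. The Gpat3 call in Ercc1 held in 3 of the 8 fits with 1 library left out, namely those without WT library 2, 3 or 4. Lpin1, whose lipin also acts with PPAR-alpha, fell by 2.44 ± 0.48 in Ercc1 (edgeR, adjusted p = 0.00974) and gave -1.34 ± 0.45 in NemoDK_Ercc1 (adjusted p = 0.0731).

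Lipolysis genes were 1 higher and 3 lower of 12 in Ercc1 and 1 and 1 in NemoDK_Ercc1, with medians of -0.18 and -0.19, against 4 higher and 2 lower and 4 and 1 when scaled by library size alone. Pnpla2, which encodes ATGL, was 55.5 to 96.3 CPM in WT, 57.6 and 106 in the Ercc1 livers, and 121 and 122 in NemoDK_Ercc1, and its coactivator Abhd5 was 27.7 to 31.8 in WT and 35.7 to 38.3 in the mutant livers, and neither was called (adjusted p = 0.669 and 0.0506 in Ercc1, 0.0821 and 0.0510 in NemoDK_Ercc1). The lipase genes Ces1g, higher, and Ces3b, lower, were called in both comparisons.

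Fatty acid uptake and binding genes were 2 higher and 3 lower of 16 in Ercc1 and 1 and 4 in NemoDK_Ercc1, with medians of -0.36 and -0.37, against 4 and 1 and 3 and 3 when scaled by library size alone. Lpl, the lipoprotein lipase and a PPAR-gamma target in fat cells, was 10.1, 8.71, 9.48 and 16.8 CPM in WT, 75.5 and 78.0 in the Ercc1 livers, and 97.5 and 79.8 in NemoDK_Ercc1. It rose by 2.76 ± 0.24 (edgeR, adjusted p = 0.000349) and 2.97 ± 0.24 (adjusted p = 0.000271). Fabp4, another fat-cell target of PPAR-gamma, was 3.89 to 5.87 CPM in WT and 5.65 to 7.67 in the mutant livers and was not called. Fabp1, the abundant fatty acid binding protein of hepatocytes, and Acsl1, a fatty acyl-CoA synthetase, were called lower in both, Fabp1 in Ercc1 not when scaled by library size alone (-0.75, adjusted p = 0.0875). Of 7 triglyceride export genes 1 was lower in each comparison (Apob, the VLDL protein, -0.58 and -0.68) and 0 higher, with medians of -0.18 and -0.43. The Apob calls ended with scaling by library size alone (-0.31, adjusted p = 0.200, and -0.42, adjusted p = 0.103). The Ercc1 calls of Fabp1 and Apob also ended without WT library 3, among others. They held in 2 and 1 of the 8 fits with 1 library left out.

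Partners and regulators of PPAR-gamma were 11 lower and 0 higher of 19 in Ercc1 and 3 lower and 0 higher in NemoDK_Ercc1, with medians of -0.58 and -0.36. Scaled by library size alone they were 6 lower and 2 higher in Ercc1 and 2 lower and 0 higher in NemoDK_Ercc1. With 1 library left out, 3 to 12 were lower in Ercc1, with the 3 found without Ercc1 library 1, and 0 to 4 in NemoDK_Ercc1, with 0 without either of its libraries. The coactivator genes Ncoa1 (-0.79 and -0.81) and Ncoa2 (-1.12 and -1.01) and the corepressor gene Ncor1 (-0.79 and -0.81) were called in both. Ppargc1a fell by 1.50 ± 0.24 and Klf15 fell by 1.26 ± 0.20 in Ercc1 (edgeR, adjusted p = 0.00425 and 0.00374). In NemoDK_Ercc1 they gave -0.29 (adjusted p = 0.392) and -0.42 (adjusted p = 0.150). Between the mutant groups the differences were 1.21 and 0.84 with adjusted p = 0.588 and 0.595. Ppara was 66.4 to 152 CPM in WT and 45.0 to 96.1 in the mutant livers, and was not called. With age as a covariate, none of the 19 named pathway genes called in Ercc1 kept that call. The edgeR adjusted p was 0.140 for Lpl, 0.269 for Hilpda, 0.178 for Dgat2, 0.207 for Klf15, 0.433 for Ppargc1a and 0.339 for Ncoa2. Of all tested genes, 24 were called higher and 17 lower in that fit, where age and genotype cannot be told apart. Of the 19 named pathway genes called in Ercc1, 6 kept the call whichever library was left out, namely Lpl, Hilpda, Dgat2, Klf15, Ppargc1a and Ncoa2. Of the 16 called in NemoDK_Ercc1, Lpl alone did so, and each of the other 15 lost it without either NemoDK_Ercc1 library.

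**Figure D4:**
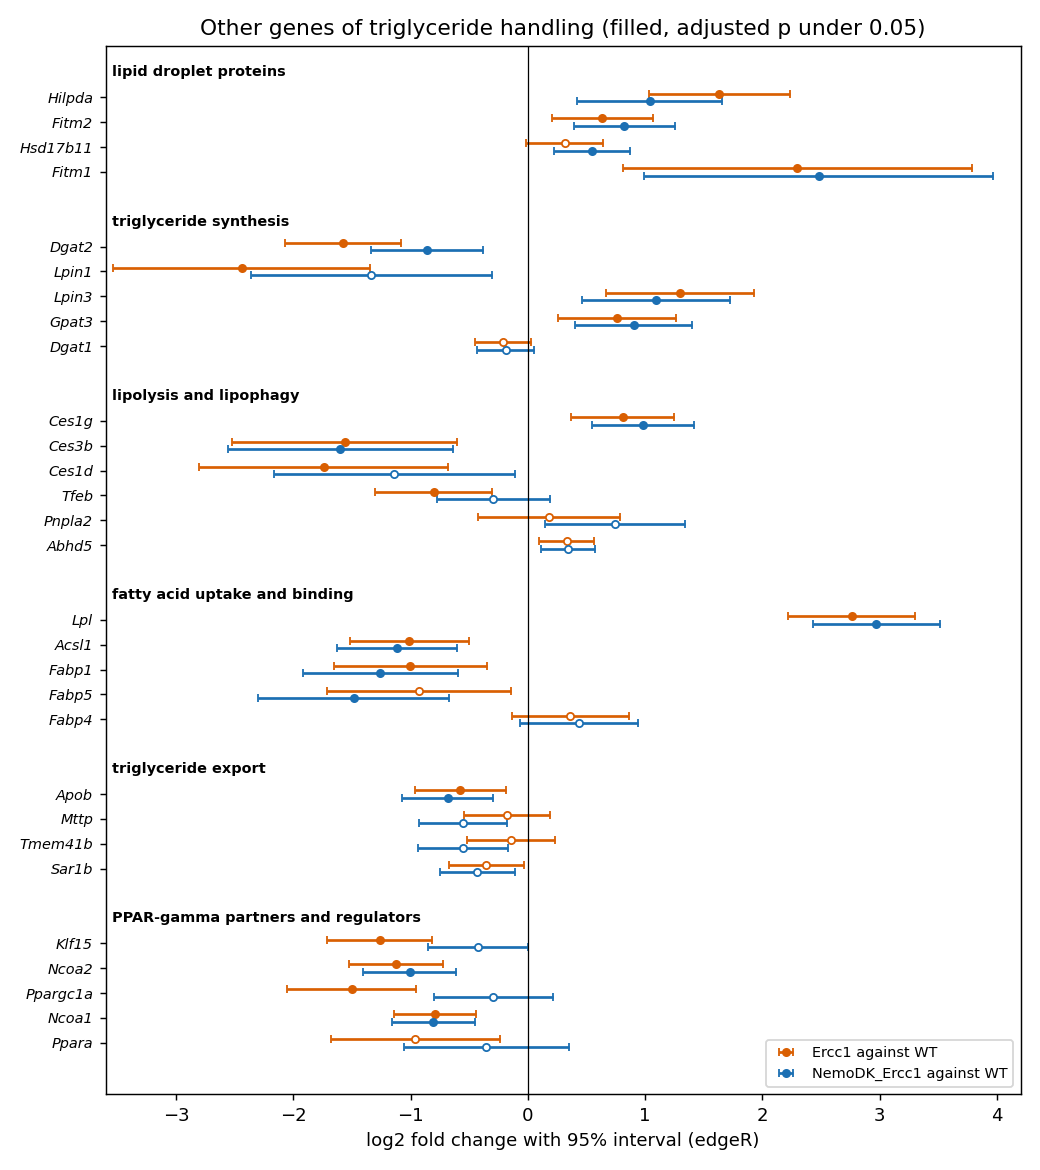
Log2 fold change with 95% intervals (edgeR) of other triglyceride-handling genes in Ercc1 against WT and NemoDK_Ercc1 against WT, grouped by list. Filled points have an adjusted p under 0.05. The points of Lpl are the furthest to the right, and Dgat2, Acsl1, Fabp1 and Apob are filled left of 0 in both comparisons.

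Of 9 adipocyte markers 3 were tested and 0 were called in either comparison. Lep, Retn and Plin1 had 0 counts in every library, Adipoq 0 to 6, Cfd 0 to 2 and Ucp1 0 to 1. The summed adipocyte list, 1095 to 4299 CPM in WT, 526 and 1333 in the Ercc1 livers, and 929 and 710 in NemoDK_Ercc1, was nearly all Car3, which hepatocytes also express. Macrophages express Cd36, Plin2, Lpl and Pparg, and 9 of 14 macrophage markers were called higher in Ercc1 and 10 in NemoDK_Ercc1, 0 lower, with medians of 1.40 and 1.32. With 1 library left out the counts were 6 to 11 in Ercc1, lowest without Ercc1 library 2, and 4 to 12 in NemoDK_Ercc1, lowest without either of its libraries. Their summed level was 242 to 469 CPM in WT, 399 and 688 in the Ercc1 livers, and 624 and 692 in NemoDK_Ercc1. Gpnmb and Trem2, genes of lipid-laden macrophages, were 0.0484 to 0.349 and 0.302 to 0.969 CPM in WT, and 3.04 to 9.70 and 2.90 to 5.25 in the mutant livers. Gpnmb was under the filter of about 0.404 CPM in every WT liver. It was tested only because of the mutant libraries, so it had to differ and adds no support to the marker count. The part of macrophages in the member changes was not tested. Endothelial markers, of which some vessels express Cd36, were 1 higher and 1 lower of 10 in Ercc1 and 2 and 1 in NemoDK_Ercc1, with summed levels of 297 to 323 CPM in WT and 269 to 333 in the mutant livers. Stellate cells store retinyl esters in droplets, and their markers were 1 higher and 1 lower of 10 in Ercc1 and 1 and 0 in NemoDK_Ercc1, with summed levels of 424 to 505 CPM in WT and 348 to 529 in the mutant livers. Hepatocyte markers were 4 lower of 9 in Ercc1 and 5 lower in NemoDK_Ercc1, with 0 higher in both. Scaled by library size alone, 2 hepatocyte markers were lower in each comparison, while 5 endothelial and 3 stellate markers were higher and 0 lower in each. With 1 library left out, 0 to 5 hepatocyte markers were lower in Ercc1, with 0 without either Ercc1 library, and 0 to 6 in NemoDK_Ercc1, with 1 without its library 1 and 0 without its library 2.

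Genes with profiles most like the 3 widest-ranging members were sought among 11770 other tested genes, by the mean absolute difference of log2 CPM over the 8 libraries after each gene was centred on its own mean. Nearest to Mogat2 were Ubd, a ubiquitin-like modifier gene (difference 0.43), Psrc1, a p53 target (0.44), and Dnah1, an axonemal dynein gene (0.49). Nearest to Mogat1 were Phlda3, a p53 target that restrains Akt (0.31), Pls1, an actin bundling gene (0.32), and H19, an imprinted noncoding RNA (0.39). Nearest to Cidec were again Phlda3 (0.25), then Slc13a5, the citrate transporter gene (0.31), and Cdhr2, a cadherin of microvilli (0.37). Phlda3 averaged 0.966 CPM in WT, 15.0 in Ercc1 and 17.6 in NemoDK_Ercc1, close to Cidec at 0.889, 17.3 and 15.4. These profiles share the same 8 libraries and the same contrast of WT with mutant livers.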

How the data were processed

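The authors deposited raw counts per gene for 8 total-RNA liver libraries made with a stranded kit, per the labels' protocols. HISAT2 2.1.0, featureCounts and FastQC, with the build GRCm38, are named in the submitters' processing notes. The annotation release, strand setting and treatment of reads with several alignments are not given in the sources used here. Groups came from the genotype labels, and replicate numbers only name libraries.

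Tests used edgeR 4.0.16 under R 4.3.3, with DESeq2 1.42.0 as an alternative, and figures matplotlib 3.10.9. After filterByExpr (about 0.404 CPM in at least 2 libraries) 15598 of 55487 genes were tested with TMM factors and a quasi-likelihood fit of 3 group means to all 8 libraries, adjusted by Benjamini-Hochberg with a threshold of 0.05. A standard error is the absolute log2 fold change over the square root of F, and 95% intervals use the fit's degrees of freedom. Log2 CPM used a prior count of 2. The fit was tested on simulated counts. Exon lengths and overlaps came from GENCODE M21 (GRCm38), which held 55227 of the identifiers, and promoter sequences from RefSeq (GRCm38.p6). Alternatives were RLE factors, library size alone, no filter, DESeq2, age as a covariate, a fit to the compared groups alone and each library left out.

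Named genes were the 10 members, up to 4 genes per list with the smallest p in either comparison with WT, and a few genes of defining role. Plin3, Cideb, Ncor1, Gpam and the adipocyte markers with few counts were added after their values were seen. The members, the 11 lists and the tests were chosen with earlier results of these data known.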

Additional observations from a re-analysis of the deposited data

How the results depend on the processing

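No paired analysis was possible because the labels pair no mice. Scaling by library size alone gave 3765 genes higher and 690 lower in Ercc1 against WT (1761 and 1482 with TMM) and 3508 and 490 in NemoDK_Ercc1 against WT (1646 and 1154 with TMM), and turned the uncalled values of Dgat1 (0.056 in Ercc1, 0.078 in NemoDK_Ercc1), Mttp (0.087), Adrb3 (0.12) and Tmem41b (0.12) in Ercc1. Age as a covariate left 24 genes higher and 17 lower in Ercc1, with 2 members higher, and gave 1 member lower in NemoDK_Ercc1. It turned Gpat3 (-0.15), Plin5 (-0.038), Car3 (0.59), Mttp (0.013), Adrb3 (0.91) and Fabp4 (-0.28) in Ercc1, and Plin4 (1.19) and Cd36 (0.48) between the mutant groups. Members called lower were 1 in Ercc1 and 2 in NemoDK_Ercc1 both with DESeq2 and with no filter, and Plin2 was called higher in Ercc1 with each. No share of all genes against WT is at hand for these 2 settings. Between the mutant groups DESeq2 called 33 genes higher and 36 lower, no filter 28 and 37, and a fit to those groups alone 1 higher.

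Leaving out each library in turn gave 774 to 1845 genes higher and 383 to 1563 lower in Ercc1, 380 to 1672 and 157 to 1344 in NemoDK_Ercc1, and 0 to 2 higher between the mutant groups. The lowest counts came without Ercc1 library 1 and without NemoDK_Ercc1 library 1, and leaving out the other library of each pair gave 1070 and 834 in Ercc1 and 451 and 172 in NemoDK_Ercc1. Members called higher were 4 to 6 in Ercc1 and 4 to 5 in NemoDK_Ercc1, and members called lower 0 to 2 and 0 to 3, the highest without WT library 3. Uncalled log2 values that took both signs were, in Ercc1 against WT, Plin5 (-0.061 to 0.19), Pnpla2 (-0.33 to 0.55), Adrb3 (-0.74 to 0.27) and Tmem41b (-0.40 to 0.068), and between the mutant groups Pparg (-0.0075 to 0.50), Plin4 (-0.38 to 0.11), Cd36 (-0.33 to 0.016), Mogat1 (-0.72 to 0.39), Cidec (-0.58 to 0.41) and Mogat2 (-0.057 to 0.99). The causes were not tested. Groups of 2 mice and counts under 20 for Mogat1 and Mogat2 in WT limit the precision of these values.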
